A study of Mus musculus with 24 samples.

Results

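The calcium- and sodium-activated potassium channels were followed in sorted nociceptors as 10 genes, which were the rows of the count files whose Ensembl identifier carried 1 of 10 chosen symbols. These were the pore gene Kcnma1 and the beta subunit genes Kcnmb1, Kcnmb2 and Kcnmb4 of the large-conductance (BK) channel, the small-conductance (SK) genes Kcnn1, Kcnn2 and Kcnn3, the intermediate-conductance gene Kcnn4, and the sodium-activated channel genes Kcnt1 (Slack) and Kcnt2 (Slick). They were 10 of 47643 identifiers in the files, and all 10 were among the 17178 genes with enough counts to be tested. Both genotypes carried Nav1.8-Cre and the Rosa26-ZsGreen reporter on a mixed C57BL/6 and AJ strain background. Control mice were Tsc2 flox/+, so that their Cre-expressing neurons had lost 1 Tsc2 allele, and Nav-Tsc2 mice were Tsc2 flox/null, so that the same neurons had no intact allele. Tsc2 encodes a subunit of the complex that restrains the growth-promoting kinase complex mTORC1. Cre under the Nav1.8 promoter is active mainly in C-nociceptors and in a share of sensory neurons with myelinated axons, and recombines before birth. Mice were 8 to 9 weeks old, and the L4 dorsal root ganglia (DRG) came from the uninjured side, 3 d after the sciatic nerve of the other side had been crushed. From each of 4 mice per genotype, 2 of them male (replicates 1 and 2) and 2 female (replicates 3 and 4), 3 libraries of 100 GFP-positive cells were sequenced, and the counts of a mouse's libraries were added, which leaves 4 replicates per genotype.

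BK channels open to membrane depolarization and intracellular calcium together, repolarize the action potential and shape the fast afterhyperpolarization. Their beta subunits set calcium sensitivity and gating. SK and intermediate-conductance channels have no voltage sensor and are opened by calcium through constitutively bound calmodulin, and they slow repetitive firing. Slack and Slick are opened by intracellular sodium and carry a late outward current that limits excitability. In sensory neurons, Slack has been described in nonpeptidergic, IB4-binding nociceptors and Slick in neurons that contain CGRP.

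Libraries held 8339220 to 34228180 counts on genes, and mice 47959617 to 61290435. No library was identical to another. The reads were amplified without molecular identifiers, so the spread between mice is given in place of counting error. Tsc2 measured 13.4, 24.7, 21.5 and 24.1 normalized CPM (counts scaled to equal library size) in control mice 1 to 4 and 8.70, 8.51, 7.30 and 11.0 CPM in Nav-Tsc2 mice 1 to 4, which did not overlap. The nociceptor genes Scn10a (510 to 791 CPM) and Prph (787 to 1892 CPM) were present in all 8 mice. Among glial genes, Prx stayed under 1 CPM and Egr2 reached at most 3.93 CPM, whereas S100b fell from 712 to 1112 CPM in control to 27.9 to 188 CPM in Nav-Tsc2 mice. In bulk samples of this kind, fewer cells of a type and less RNA per cell cannot be told apart.

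Of the 10 genes, 3 rose, 2 fell and 5 did not pass the test (edgeR quasi-likelihood test, with a Benjamini-Hochberg adjusted p below 0.05 and a log2 difference beyond 0.5 in either direction). Kcnma1, Kcnmb1 and Kcnmb4 were the 3 that rose, and 9.12% of all tested genes did so. Kcnn2 and Kcnt2 were the 2 that fell, beside 8.00% of all tested genes. In 4 of the 10, Kcnma1, Kcnmb4, Kcnn2 and Kcnt2, the 4 Nav-Tsc2 mice did not overlap the 4 control mice, which held for 26.9% of tested genes. The median log2 fold change was -0.01 over the 10 genes and 0.01 over all tested genes. The 3 that rose all belong to the BK channel, and the 2 that fell are 1 SK and 1 sodium-activated channel gene.

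**Figure D1:**
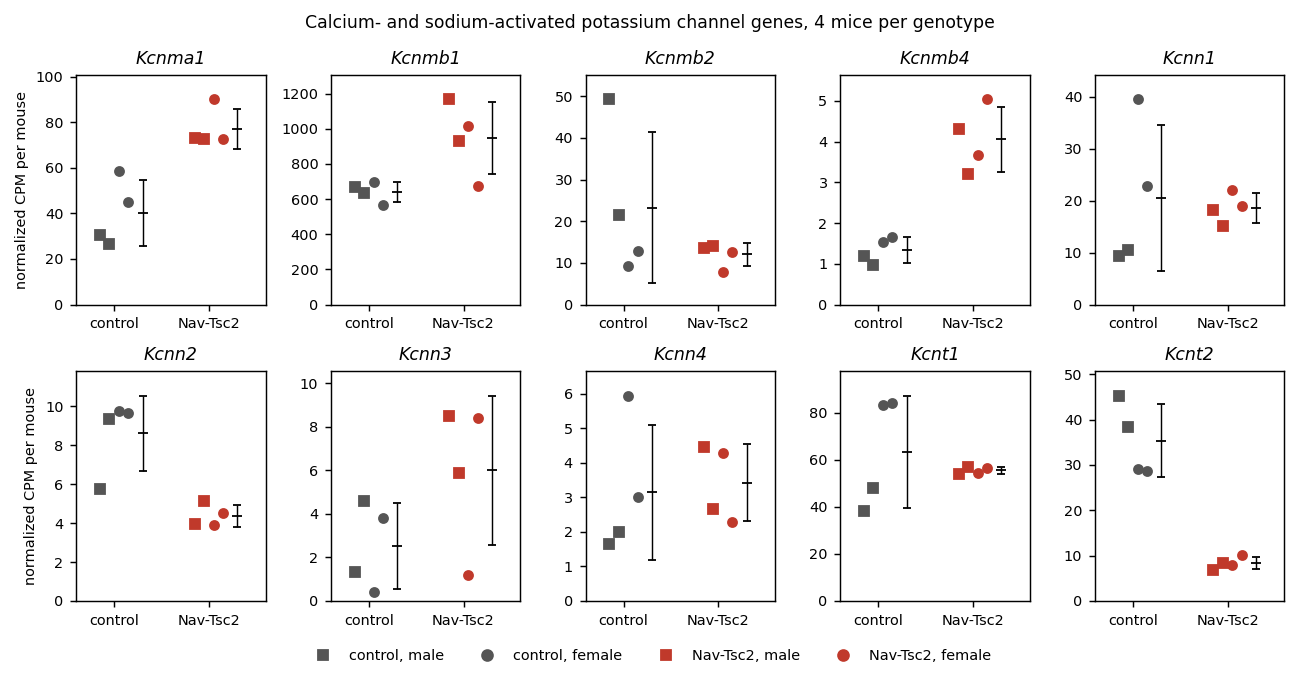
Normalized CPM of each of the 10 genes in 4 control (grey) and 4 Nav-Tsc2 (red) mice, with squares for males, circles for females and the mean and SD of each genotype in black. Kcnma1, Kcnmb4, Kcnn2 and Kcnt2 separate the genotypes, while control males and control females stand apart for Kcnt1 and Kcnn1.

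Levels of different genes were compared per kb of exon, taken as the union of annotated exons. Kcnmb1 was by far the most abundant member, with 153 ± 13.6 CPM per kb in control mice (SD, n = 4) and 226 ± 49.1 CPM per kb in Nav-Tsc2 mice (SD, n = 4). The next 5 genes in control mice, Kcnmb2 (7.44 ± 5.78 CPM per kb), Kcnt1 (6.68 ± 2.52 CPM per kb), Kcnt2 (5.12 ± 1.16 CPM per kb), Kcnn1 (4.48 ± 3.06 CPM per kb) and Kcnma1 (2.37 ± 0.853 CPM per kb), followed each other with overlapping ranges. Kcnn2 lay below Kcnma1 without overlap, at 1.15 ± 0.259 CPM per kb. It overlapped Kcnn4 (0.616 ± 0.382 CPM per kb), and Kcnmb4 (0.404 ± 0.0959 CPM per kb) and Kcnn3 (0.243 ± 0.189 CPM per kb) closed the order with overlapping ranges. In Nav-Tsc2 mice Kcnt2 was at 1.21 ± 0.193 CPM per kb, close to Kcnmb4 at 1.22 ± 0.240 CPM per kb. The beta subunit gene Kcnmb1 thus exceeded the BK pore gene in each mouse, by 48.2 to 96.0 times in control and 37.8 to 65.0 times in Nav-Tsc2 mice per kb of exon. The Kcnma1 exon union is long, at 17.0 kb against 4.19 kb for Kcnmb1, and exons that these neurons do not use would lower its value per kb.

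**Figure D2:**
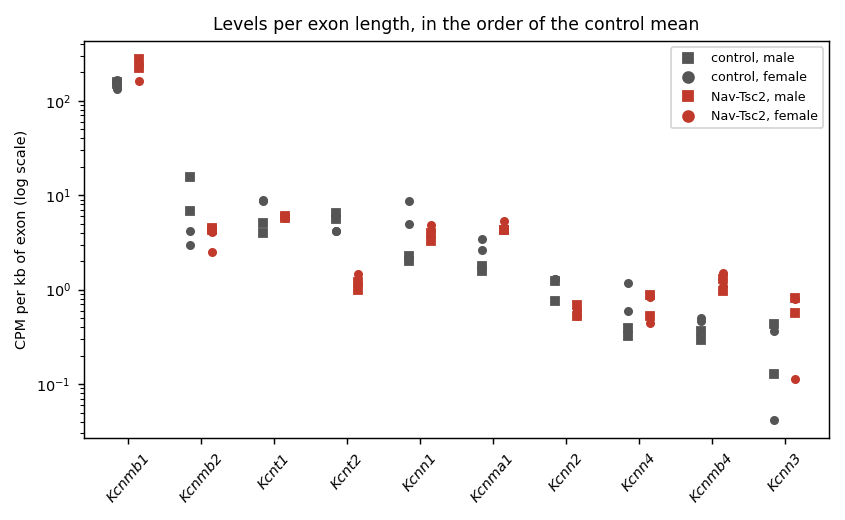
CPM per kb of exon on a log scale for the 10 genes in the order of their control mean, each point being 1 of 4 control (grey) or 4 Nav-Tsc2 (red) mice, with squares for males and circles for females. Kcnmb1 lies above 100 CPM per kb in every mouse, and the other 9 genes lie below 20.

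Kcnma1, the pore-forming subunit of the BK channel, lies on chromosome 14 (GRCm38, 23289431 to 24014491, minus strand). It measured 30.6, 26.7, 58.4 and 45.0 CPM in control mice 1 to 4 and 72.8, 72.5, 90.1 and 72.4 CPM in Nav-Tsc2 mice 1 to 4. All 4 Nav-Tsc2 mice were above all control mice, and the lowest control values were those of the 2 males. The rise was 1.91-fold, a log2 fold change of 0.94 ± 0.23 (SE, adjusted p = 0.0177 by edgeR, n = 4 mice per genotype). Over single libraries the ranges met, at 13.7 to 70.9 CPM in the 12 control and 48.5 to 98.3 CPM in the 12 Nav-Tsc2 libraries. Without Nav-Tsc2 mouse 3, the highest, the log2 fold change was 0.85 and the adjusted p 0.0505 by edgeR.

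Kcnmb1, whose product raises the calcium sensitivity of the BK channel and is best known from smooth muscle, lies on chromosome 11 (33963013 to 33973641, plus strand). It measured 669, 633, 696 and 564 CPM in control mice 1 to 4. In Nav-Tsc2 mice 1 to 4 it measured 1168, 933, 1013 and 676 CPM. Nav-Tsc2 mouse 4 lay within the control range, and the other 3 lay above it. The log2 fold change was 0.56 ± 0.15 (SE, adjusted p = 0.0267 by edgeR), which is 1.48-fold. This call was not retained in 5 of the 8 fits that left out a mouse, those without Nav-Tsc2 mouse 1, 2 or 3 or without control mouse 2 or 4, where the log2 fold change was 0.45 to 0.57 and the adjusted p 0.0603 to 0.0759 by edgeR.

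As Kcnmb1 is best known from smooth muscle, its level was set beside 6 smooth muscle and pericyte markers. Their summed level was 5.89 to 46.3 CPM in control and 20.0 to 148 CPM in Nav-Tsc2 mice, and its high values came from the pericyte gene Rgs5, which did not pass the test (adjusted p = 0.361 by edgeR). Rgs5 measured 38.7 CPM in control mouse 4 and 90.6 and 124 CPM in Nav-Tsc2 mice 1 and 4, and at most 2.24 CPM in the other 5 mice. Of the 4 markers tested, 2 rose. Acta2 measured at most 0.237 CPM in control and 6.03 to 8.06 CPM in Nav-Tsc2 mice. Pdgfrb measured 2.95 to 10.9 CPM in control and 11.2 to 18.9 CPM in Nav-Tsc2 mice. The contractile genes Myh11 and Cnn1 stayed under 1 CPM in all 8 mice. Single genes of other cell types rose as well. Of 5 endothelial markers, summing to 0.326 to 1.83 CPM in control and 5.81 to 15.5 CPM in Nav-Tsc2 mice, Flt1 (at most 0.0602 CPM in control and 3.67 to 12.7 CPM in Nav-Tsc2 mice) and Kdr rose, while Cdh5 and Cldn5 stayed under 1 CPM in each mouse. Of 6 macrophage markers, summing to 1.77 to 6.33 CPM in control and 7.76 to 19.4 CPM in Nav-Tsc2 mice, Cx3cr1 rose (at most 0.0602 CPM in control and 2.82 to 9.33 CPM in Nav-Tsc2 mice), while C1qa stayed under 1 CPM. Csf1r and Cd68 were higher in Nav-Tsc2 mice without overlap but did not pass the test (adjusted p = 0.119 and 0.168 by edgeR). Aif1 and C1qb overlapped, and C1qb averaged 1.75 CPM in control and 0.574 CPM in Nav-Tsc2 mice. Kcnmb1 also lies within the span of Kcnip1, a gene for a potassium channel-interacting protein on the opposite strand (33629339 to 33993152), although no exons overlap. Kcnip1 measured 148 to 321 CPM in control and 52.1 to 97.5 CPM in Nav-Tsc2 mice, the opposite direction to Kcnmb1. The library kit did not mark strand. The part of these markers and of Kcnip1 in the Kcnmb1 values was not tested.

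As Kcnmb1 was the most abundant member, the 250 bases before its start are shown (RefSeq, GRCm38.p6, chr11:33962763-33963012, plus strand). The window overlapped no annotated exon and held 50.8% G and C, close to the median of 52.4% over 32851 windows of this kind, with 1 CG dinucleotide. It was searched on both strands for the TATA box (spelled TATAAA), the E-box (spelled CACGTG), the cyclic AMP response element (spelled TGACGTCA) and its first part (TGACG, so that these overlap), the GC box (spelled GGGCGG), the CCAAT box, and the amino acid response element (spelled TGATGNAA). None of these was found in it, so that it is printed all in lower case.
Kcnmb1: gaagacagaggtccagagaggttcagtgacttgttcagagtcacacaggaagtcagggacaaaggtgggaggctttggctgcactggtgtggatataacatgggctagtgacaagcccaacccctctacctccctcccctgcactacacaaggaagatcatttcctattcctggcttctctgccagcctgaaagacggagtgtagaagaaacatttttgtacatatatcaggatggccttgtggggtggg

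Kcnmb2 encodes a beta subunit that inactivates the BK channel through its intracellular end. It lies on chromosome 3 (31902507 to 32200180, plus strand). It measured 49.3, 21.4, 9.37 and 13.0 CPM in control mice 1 to 4 and 13.6, 13.9, 7.90 and 12.7 CPM in Nav-Tsc2 mice 1 to 4. Control male 1 stood far above all others, and the remaining mice overlapped. The log2 fold change of -0.95 ± 0.46 (SE) did not pass the test (adjusted p = 0.183 by edgeR, 95% interval -1.99 to 0.09). Without control mouse 1 the log2 fold change was -0.28.

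Kcnmb4, the beta subunit gene typical of brain BK channels, lies on chromosome 10 (116417861 to 116473878, minus strand). It measured 1.20, 0.966, 1.54 and 1.67 CPM in control mice 1 to 4 and 4.30, 3.20, 3.67 and 5.04 CPM in Nav-Tsc2 mice 1 to 4. The genotypes did not overlap, and the 3.02-fold rise was the largest rise among the members that passed the test (log2 fold change 1.59 ± 0.32, SE, adjusted p = 0.00766 by edgeR). It passed in each of the 15 alternative fits. The level was low, with 3 to 44 reads in a control library and 34 to 149 reads in a Nav-Tsc2 library. Exons of Kcnmb4os1 and Kcnmb4os2 on the opposite strand cover 31.5% of its exon length, and neither exceeded 0.762 CPM in a mouse. As reads were unstranded, those in the shared stretch may have been set aside as belonging to more than 1 gene. That would lower the counts of these genes, the Kcnmb4 level per kb included, so the low counts do not show that antisense RNA was absent. Per kb of exon, Kcnmb4 was 0.134 to 0.201 of Kcnma1 in control and 0.208 to 0.356 of it in Nav-Tsc2 mice.

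Among the SK genes only Kcnn2 passed the test. Kcnn2, the SK2 channel gene, lies on chromosome 18 (45268860 to 45686024, plus strand). It measured 5.73, 9.34, 9.77 and 9.64 CPM in control mice 1 to 4 and 3.97, 5.13, 3.90 and 4.52 CPM in Nav-Tsc2 mice 1 to 4. All Nav-Tsc2 mice were below all control mice, and control mouse 1 was the lowest of the controls. The level was 1.97-fold lower in Nav-Tsc2 mice, a log2 fold change of -0.98 ± 0.24 (SE, adjusted p = 0.0181 by edgeR). Without Nav-Tsc2 mouse 1 the log2 fold change was -0.93 (adjusted p = 0.0589 by edgeR), and without Nav-Tsc2 mouse 3 it was -0.92 (adjusted p = 0.0501 by edgeR).

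Kcnn1, the SK1 gene on chromosome 8 (70842049 to 70863258, minus strand), measured 9.32, 10.5, 39.5 and 22.8 CPM in control mice 1 to 4 and 18.2, 15.1, 22.0 and 19.0 CPM in Nav-Tsc2 mice 1 to 4. The Nav-Tsc2 mice lay between the 2 male and the 2 female controls. The log2 fold change was -0.15 ± 0.41 (SE, adjusted p = 0.848 by edgeR, 95% interval -1.07 to 0.78). Per kb of exon Kcnn1 was the largest of the 3 SK genes in each mouse, with 57.5% to 86.5% of their sum in control and 72.4% to 88.3% in Nav-Tsc2 mice.

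Kcnn3, the SK3 gene on chromosome 3 (89520164 to 89675132, plus strand), measured 1.34, 4.58, 0.434 and 3.82 CPM in control mice 1 to 4 and 8.52, 5.89, 1.19 and 8.43 CPM in Nav-Tsc2 mice 1 to 4. It had no read in 4 of the 12 control libraries and at least 3 reads in each Nav-Tsc2 library. Nav-Tsc2 mouse 3 overlapped the controls and the other 3 lay above them. The log2 fold change of 1.24 ± 0.75 (SE) did not pass the test (adjusted p = 0.285 by edgeR, 95% interval -0.44 to 2.92).

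Kcnn4, the intermediate-conductance channel gene on chromosome 7 (24370263 to 24386690, plus strand), is best known from red blood cells and lymphocytes. It measured 1.66, 1.99, 5.95 and 3.01 CPM in control mice 1 to 4 and 4.46, 2.67, 4.30 and 2.29 CPM in Nav-Tsc2 mice 1 to 4. The genotypes overlapped throughout (log2 fold change 0.12 ± 0.45, SE, adjusted p = 0.889 by edgeR, 95% interval -0.89 to 1.13). The red blood cell genes Hba-a1, Hbb-bs and Hbb-bt were under 1 CPM in each mouse, and Alas2 reached 1.14 CPM in control and 0.329 CPM in Nav-Tsc2 mice. Lymphocyte markers were not examined.

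**Figure D3:**
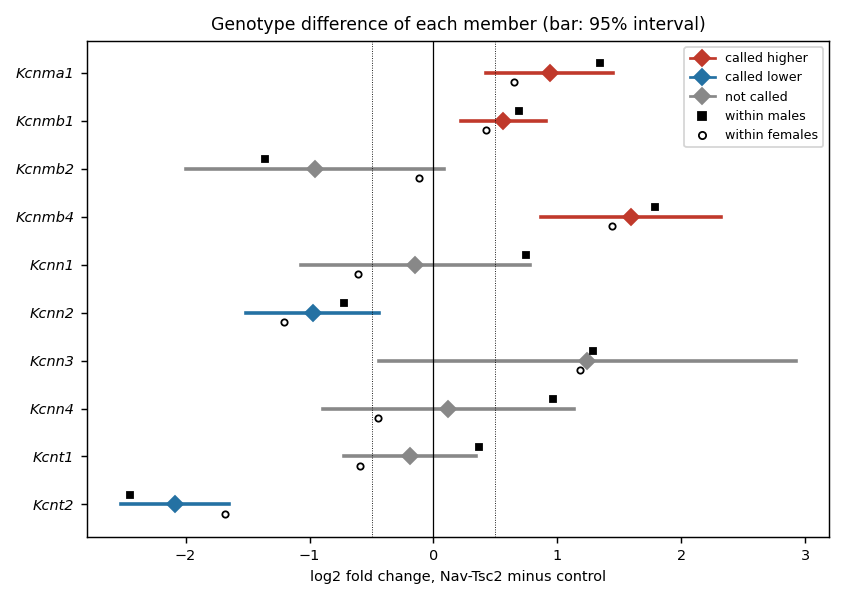
Log2 fold change of Nav-Tsc2 minus control for each gene with its 95% interval (diamond and bar), beside the values within 2 male mice per genotype (filled squares) and within 2 female mice per genotype (open circles). Dotted lines mark a log2 fold change of 0.5 in either direction. Kcnt2 has the lowest value at -2.09, and Kcnn1, Kcnn4 and Kcnt1 have opposite signs in the sexes.

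Kcnt2 fell most. It encodes the Slick channel and lies on chromosome 1 (140246158 to 140612067, plus strand). It measured 45.3, 38.3, 29.1 and 28.6 CPM in control mice 1 to 4 and 6.91, 8.40, 7.87 and 10.1 CPM in Nav-Tsc2 mice 1 to 4. The highest Nav-Tsc2 mouse was far below the lowest control mouse. The level was 4.24-fold lower, a log2 fold change of -2.09 ± 0.19 (SE, adjusted p = 0.000152 by edgeR), and it passed in each of the 15 alternative fits, where the log2 fold change ran from -2.20 to -1.94. The fall was present within males (-2.45 ± 0.21, SE, adjusted p = 0.000831 by edgeR) and within females (-1.68 ± 0.20, SE, adjusted p = 0.00439 by edgeR). Over libraries, control values were 7.04 to 63.3 CPM and Nav-Tsc2 values 4.22 to 14.9 CPM. Library A of control mouse 3 was the lowest control library for Kcnt2 at 7.04 CPM and the highest for Kcnt1 at 143 CPM.

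As Kcnt2 was the member with the largest difference, the 250 bases before its RefSeq start are shown (GRCm38.p6, chr1:140245468-140245717, plus strand), a window that overlapped no annotated exon. Capitals mark the CCAAT box in reverse (ATTGG), found 2 times here and on either strand in 33.8% of all 32851 windows. They also mark the first part of the cyclic AMP response element in reverse (CGTCA), found 1 time here and on either strand in 17.8% of windows. The other motifs named for Kcnmb1 were not found. The window held 61.6% G and C.
Kcnt2: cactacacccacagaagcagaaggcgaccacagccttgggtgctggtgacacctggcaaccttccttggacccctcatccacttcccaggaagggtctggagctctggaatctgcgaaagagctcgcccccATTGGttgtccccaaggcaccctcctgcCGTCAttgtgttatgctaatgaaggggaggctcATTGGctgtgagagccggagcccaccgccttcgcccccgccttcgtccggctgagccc
The matches describe letters in this window and no binding was measured. Windows of 4 other members contained the GC box, with 4 copies for Kcnmb4 (83.6% G and C), 3 for Kcnma1 (79.2% G and C) and 1 each for Kcnn4 (58.8% G and C) and 1 of the Kcnn1 windows (60.4% G and C), against 1 or more copies in 32.7% of all windows. Of these 4, the windows of Kcnmb4, Kcnma1 and Kcnn1 overlapped annotated exons, and the Kcnn4 window did not. An entry was found for 8 of the 10 members.

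Kcnt1, which encodes Slack, lies on chromosome 2 (25863734 to 25918273, plus strand). It measured 38.1, 47.9, 83.5 and 84.1 CPM in control mice 1 to 4 and 54.0, 57.2, 54.4 and 56.6 CPM in Nav-Tsc2 mice 1 to 4. The Nav-Tsc2 mice lay close to each other, at 55.5 ± 1.59 CPM (SD, n = 4), between the control males and the control females. The log2 fold change was -0.19 ± 0.24 (SE, adjusted p = 0.630 by edgeR, 95% interval -0.72 to 0.34). Per kb of exon, the Slick gene made up 62.1%, 52.4%, 32.4% and 31.9% of the sum of both sodium-activated genes in control mice 1 to 4 and 15.0%, 16.8%, 16.6% and 19.7% in Nav-Tsc2 mice 1 to 4. The sum itself was 10.6 to 13.0 CPM per kb in control and 6.69 to 7.42 CPM per kb in Nav-Tsc2 mice, again without overlap.

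The sexes differed among control mice in many of these genes. Control males and control females did not overlap in 8 of the 10 genes, beside 39.8% of all tested genes, whereas Nav-Tsc2 males and females did not overlap in 2, Kcnmb2 and Kcnn1, beside 36.9%. Kcnma1, Kcnmb4, Kcnn1, Kcnn2, Kcnn4 and Kcnt1 were higher in control females, and Kcnmb2 and Kcnt2 were higher in control males. Kcnt1 averaged 43.0 CPM in control males and 83.8 CPM in control females, against 55.6 and 55.5 CPM in Nav-Tsc2 males and females. Kcnn1 averaged 9.91 and 31.2 CPM in control males and females, and 16.6 and 20.5 CPM in Nav-Tsc2 males and females. Both genes were therefore higher in Nav-Tsc2 than in control mice among males and lower among females, without overlap within either sex.

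The interaction of genotype with sex passed for 0 of the 10 genes by edgeR, and for 0.00582% of all tested genes, while 4 of the 10, Kcnma1, Kcnn1, Kcnt1 and Kcnt2, had an unadjusted p under 0.05. For Kcnt1 the log2 fold change in females minus that in males was -0.97 ± 0.20 (SE, adjusted p = 0.214 by edgeR), and adjusted p was 0.00715 by DESeq2 and 0.0117 by edgeR without the low-count filter. For Kcnn1 it was -1.35 ± 0.39 (SE, adjusted p = 0.360 by edgeR), with adjusted p of 0.0751 by DESeq2 and 0.0230 by edgeR without the filter. Within males 3 genes passed, Kcnma1 (1.34 ± 0.18, SE, adjusted p = 0.00302 by edgeR), Kcnmb4 (1.79 ± 0.46, SE, adjusted p = 0.0375 by edgeR) and Kcnt2, beside 15.4% of all tested genes. Within females 2 passed, Kcnt2 and Kcnt1 (-0.59 ± 0.14, SE, adjusted p = 0.0460 by edgeR), beside 7.07%. With 2 mice per sex and genotype, sex and anything else that replicates 1 and 2 share cannot be told apart.

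Markers of neuron subtypes were set beside these values. Mrgprd, the receptor gene that marks nonpeptidergic nociceptors, measured 56.0, 21.9, 325 and 233 CPM in control mice 1 to 4 and 546, 486, 598 and 518 CPM in Nav-Tsc2 mice 1 to 4, and did not pass the test (adjusted p = 0.0935 by edgeR). The 6 nonpeptidergic markers summed to 472 to 1492 CPM in control and 1528 to 1711 CPM in Nav-Tsc2 mice, with 0 of the 6 called in either direction. The 6 peptidergic markers summed to 7430 to 18011 CPM in control and 3667 to 6783 CPM in Nav-Tsc2 mice, with 3 called lower and 1 called higher. The 4 itch neuron markers summed to 62.6 to 365 CPM in control and 58.9 to 107 CPM in Nav-Tsc2 mice, with Nppb, Sst and Il31ra called lower. Sst measured 14.8 to 139 CPM in control and at most 0.248 CPM in Nav-Tsc2 mice, so that nearly all of the Nav-Tsc2 sum was Osmr, at 55.8 to 106 CPM there and 37.0 to 138 CPM in control mice (adjusted p = 0.848 by edgeR). Of the 4 markers of low-threshold C fibers, which summed to 206 to 542 CPM in control and 271 to 1626 CPM in Nav-Tsc2 mice, Th was called higher and Piezo2 lower. The part of these subtype markers in the differences of the channel genes was not tested.

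Across the 24 libraries, after each genotype mean was removed, Kcnma1 varied most like the genes Cdh1 (Pearson r = 0.89), Mrgprd (r = 0.87) and Lpar3 (r = 0.87) among genes of at least 10 CPM. Kcnn1 varied most like Tmem158 (r = 0.94), Cdh1 (r = 0.94) and Paqr5 (r = 0.90). Kcnma1 and Kcnn1 also varied together, at r = 0.85. These are descriptions over 24 libraries from 8 mice, and libraries of 1 mouse share that mouse and its sorting. With each mouse mean removed as well, r was 0.83 for Kcnma1 with Cdh1, 0.87 for Kcnn1 with Cdh1 and 0.75 for Kcnma1 with Kcnn1. Kcnma1, Kcnn1 and Kcnt1 had a positive r with all 6 nonpeptidergic markers, with medians of 0.74, 0.80 and 0.64. With each mouse mean removed the medians were 0.73, 0.67 and 0.45, and r was positive with 6, 5 and 6 of the 6 markers, the exception being Kcnn1 with P2rx3 (-0.09, against 0.47 before).

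**Figure D4:**
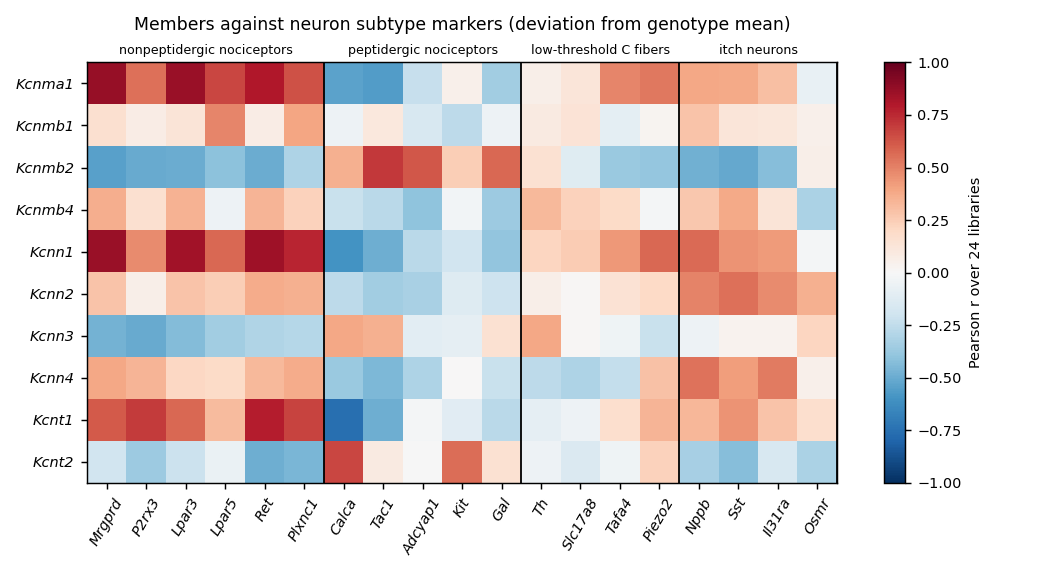
Pearson r, over 24 libraries and after removal of each genotype mean, between each of the 10 genes (rows) and markers of 4 neuron subtypes (columns), from blue at -1 to red at 1. Kcnma1, Kcnn1 and Kcnt1 are red across the 6 nonpeptidergic markers, while Kcnmb2, Kcnn3 and Kcnt2 are blue there.

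Kcnt2 had a negative r with all 6 nonpeptidergic markers, with a median of -0.29. With each mouse mean removed that median was -0.11, and r was positive with 2 of the 6. The closest genes to Kcnt2 were Tagln3 (r = 0.90), Cplx2 (r = 0.87) and Itpripl1 (r = 0.86), and its r was 0.67 with Calca, the CGRP gene. With each mouse mean removed, r with Calca was 0.71. The peptidergic markers did not all behave alike: over the 6 of them r with Kcnt2 had a median of 0.36, with 0.56 for Kit, 0.15 for Gal, 0.09 for Tac1 and -0.002 for Adcyap1, and with each mouse mean removed it was positive for 3 of the 6, with a median of 0.22. Kcnt2 had a like r of 0.66 with Nefh, a marker of myelinated sensory neurons, and a median r of 0.20 over the 6 markers of that list. Kcnt1 had r = -0.75 with Calca, and the 2 sodium-activated genes ran opposite to each other at r = -0.61, or -0.57 with each mouse mean removed. Calca measured 6039 to 14634 CPM in control and 1876 to 3367 CPM in Nav-Tsc2 mice.

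Kcnmb2 had a negative r with all 6 nonpeptidergic markers (median -0.50) and r = 0.71 with the substance P gene Tac1. With each mouse mean removed the median was -0.33, r was positive with 1 of the 6, and r with Tac1 was 0.51. The closest genes to Kcnmb2 were Gcnt2 (r = 0.81), Morc3 (r = 0.80) and Zbtb20 (r = 0.79). Kcnt1 was closest to Gnal (r = 0.83), Cds2 (r = 0.82) and Slc9a3r2 (r = 0.82). Kcnn2 was closest to Ubxn6 (r = 0.72), Cnot6l (r = 0.71) and Chd1 (r = 0.71), and its r with the 4 itch neuron markers was 0.35 to 0.55. Over these markers the median r was 0.49 for Kcnn2, 0.47 for Kcnn4 and 0.44 for Kcnn1. In Nav-Tsc2 mice Sst and Il31ra measured at most 0.248 and 1.10 CPM, so that their r rests on low values there. Kcnmb1 was closest to D6Wsu163e (r = 0.79), Sema4b (r = 0.72) and Gpr61 (r = 0.71), and its r with nonpeptidergic markers had a median of 0.14. Its r with the smooth muscle and pericyte markers Acta2, Rgs5 and Pdgfrb was -0.01, -0.16 and 0.15. Kcnmb4, Kcnn3 and Kcnn4 averaged under 5 CPM and no neighbours were sought.

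**Figure D5:**
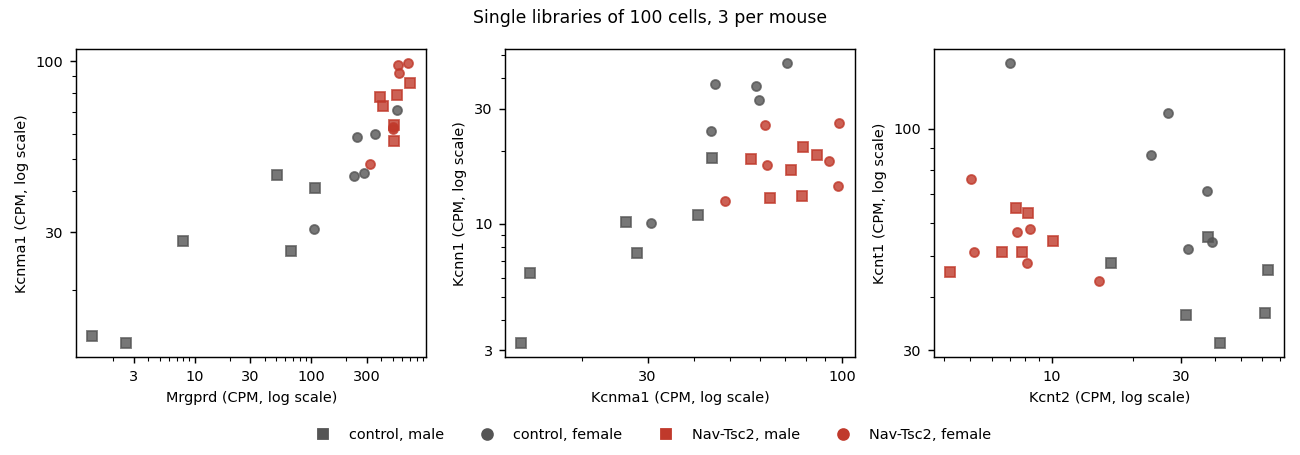
CPM of single libraries on log scales, for Kcnma1 against Mrgprd (left), Kcnn1 against Kcnma1 (middle) and Kcnt1 against Kcnt2 (right), with 12 control (grey) and 12 Nav-Tsc2 (red) libraries, squares from males and circles from females. Kcnma1 rises with Mrgprd across the control libraries, and the 12 Nav-Tsc2 libraries sit together at 319 to 708 CPM of Mrgprd.

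The spread between libraries was lower in Nav-Tsc2 than in control mice for most of all tested genes, the channel genes included. The coefficient of variation over the 12 libraries of a genotype was lower in Nav-Tsc2 in all 10 genes, beside 81.3% of all tested genes, with a median of 55.6% in control and 31.0% in Nav-Tsc2 libraries against 48.6% and 32.4% over all tested genes. For Kcnt1 it was 52.0% in control and 16.5% in Nav-Tsc2 libraries, and for Kcnn1 72.0% and 25.7%. For Kcnmb2 it was 93.6% and 27.2%.

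The channels work with other proteins, and 26 partner genes were followed beside them: further BK subunits, calmodulins and the enzymes bound to SK channels, junctophilins, and calcium release channels of the endoplasmic reticulum. Of the 22 that were tested, 4 fell and 2 rose, beside 8.00% and 9.12% of all tested genes, with a median log2 fold change of -0.09. Kcnmb3, Lrrc26, Lrrc38 and Lrrc52 had too few counts to be tested, and the last 3 encode gamma subunits of the BK channel. Calm2, which encodes calmodulin, the calcium sensor of SK channels, measured 3224 to 3388 CPM in control and 2179 to 2634 CPM in Nav-Tsc2 mice, without overlap, but its log2 fold change of -0.50 was just inside the limit. Calm3 differed by -0.09 (adjusted p = 0.424 by edgeR).

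The casein kinase 2 and protein phosphatase 2A that ride on SK channels lower and raise their calcium sensitivity, respectively. Ppp2ca, a catalytic subunit of the phosphatase, rose from 124 to 150 CPM in control to 218 to 258 CPM in Nav-Tsc2 mice, without overlap (log2 fold change 0.80 ± 0.09, SE, adjusted p = 0.000406 by edgeR). Csnk2a1 and Csnk2b did not pass, and Csnk2a2 differed by 0.40 on the log2 scale (adjusted p = 0.0375 by edgeR), under the fold limit.

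Ryanodine receptors release stored calcium onto calcium-activated channels. Ryr2 measured 22.6, 31.1, 19.9 and 23.5 CPM in control mice 1 to 4 and 3.64, 1.86, 5.06 and 5.72 CPM in Nav-Tsc2 mice 1 to 4, a log2 fold change of -2.57 ± 0.33 (SE, adjusted p = 0.000739 by edgeR). Ryr3 fell from 1.21 to 7.18 CPM to 0.391 to 1.49 CPM (log2 fold change -2.47 ± 0.62, SE, adjusted p = 0.0204 by edgeR), with 1 mouse of each genotype in the overlap, and its adjusted p rose to at most 0.0688 in the 4 alternative fits in which it did not pass. Ryr1 stayed under 1 CPM in each mouse. Of the inositol trisphosphate receptors, Itpr3 rose from 1.69 to 8.05 CPM to 10.6 to 18.0 CPM (log2 fold change 1.30 ± 0.41, SE, adjusted p = 0.0487 by edgeR), but passed in only 4 of 15 alternative fits, and Itpr1 and Itpr2 did not pass. Lingo1, a BK-associated membrane protein gene, fell from 4.01 to 12.9 CPM to 2.71 to 5.18 CPM (log2 fold change -1.33 ± 0.37, SE, adjusted p = 0.0308 by edgeR) and passed in 7 of 15 alternative fits.

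Voltage-gated calcium channels supply the calcium that opens BK and SK channels. Of 8 pore genes 7 were tested, 2 fell and 0 rose, beside 8.00% and 9.12% of all tested genes, with a median log2 fold change of -0.19. Cacna1e, the R-type pore, measured 9.41 to 19.1 CPM in control and 1.14 to 4.67 CPM in Nav-Tsc2 mice, without overlap (log2 fold change -2.17 ± 0.42, SE, adjusted p = 0.00639 by edgeR). Cacna1c, an L-type pore, fell from 60.7 to 87.1 CPM to 42.5 to 59.0 CPM (log2 fold change -0.51 ± 0.15, SE, adjusted p = 0.0407 by edgeR), at the edge of the fold limit, and passed in 9 of 15 alternative fits. The other 5 did not pass. Among them, the genotypes did not overlap for the T-type pore Cacna1h (log2 fold change -0.95, adjusted p = 0.0570 by edgeR) and the P/Q-type pore Cacna1a (0.41, adjusted p = 0.0743 by edgeR). Cacna1i, a further T-type pore, measured 0.0678 to 1.59 CPM in control and 0.653 to 3.41 CPM in Nav-Tsc2 mice (2.35, adjusted p = 0.117 by edgeR), and the N-type pore Cacna1b 92.6 to 114 CPM in control and 85.1 to 110 CPM in Nav-Tsc2 mice.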

How the data were processed

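RNA was sequenced in 24 libraries, each from 100 sorted L4 DRG cells with GFP; a mouse gave 3 technical libraries, and each genotype had 4 mice. Reads were 50 bases long, single-end and unstranded. The authors aligned them to mm10 with STAR, made counts per gene with HTSeq and deposited 1 raw count per gene and library. An additional deposited table of the authors' own DESeq2 comparison (means, fold changes, standard errors, statistics, p-values and normalized values per mouse) was not used. Entries that name no gene, mainly reads aligned to several places or to no feature, made up 47.6% to 55.9% of a library and were left out.

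Of 47643 identifiers, 47224 matched a symbol, and positions and exon lengths are those of GENCODE M21 (GRCm38). The libraries of each mouse were added together, and the sums were compared in R 4.3.3 by edgeR 4.0.16 (TMM scaling, filterByExpr, quasi-likelihood test), with Benjamini-Hochberg adjustment over 17178 genes. A gene was called where adjusted p was below 0.05 with a log2 difference beyond 0.5, and an interaction where adjusted p was below 0.05. The SE was taken as the size of the log2 difference over the root of the F statistic, intervals are 95%, and CPM is scaled by TMM. The test was tried on simulated counts in which 200 genes were changed, in equal numbers 2-fold and 4-fold. It called 121 of them, 47 changed 2-fold and 74 changed 4-fold, and 7 unchanged genes. With no gene changed it called 0. Many 2-fold changes were thus missed, and a gene that did not pass cannot be read as unchanged. Alternatives used DESeq2 1.42.0 and limma 3.58.1. The genes named were the 10 channel genes, the called genes of the partner and calcium channel lists with further members of those lists for context, Tsc2, markers, and the 3 genes of at least 10 CPM with the highest r to each member of at least 5 CPM. Not every gene that the rule selects is reported here. Kcnip1 and the Kcnmb4 antisense genes were chosen for their position. The members, lists and tests were chosen with earlier results of these data known. Library r was computed on log2 CPM with a prior count of 2. Controls were littermates according to the methods, and same-numbered mice share a sex, but which mice share a litter was not given in the sources used here.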

Additional observations from a re-analysis of the deposited data

Results flagged for a closer look

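Among the 20 groups of 4 mice (10 genes in each genotype), 2 held a mouse that stood apart from the other 3 by Dixon's criterion, where chance alone gives about 1. Nav-Tsc2 mouse 3 was the highest of its genotype for Kcnma1 at 90.1 CPM, with the other 3 at 72.4 to 72.8 CPM. Control mouse 1 was the lowest of its genotype for Kcnn2 at 5.73 CPM, with the other 3 at 9.34 to 9.77 CPM, and was still above all Nav-Tsc2 mice. In 2 genes both Nav-Tsc2 males lay above both control males, and both Nav-Tsc2 females lay below both control females. The female minus male difference in log2 fold change was -0.97 for Kcnt1 and -1.35 for Kcnn1, and neither passed the interaction test by edgeR after adjustment (adjusted p = 0.214 and 0.360).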

How the results depend on the processing

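All 5 calls among the channel genes held with DESeq2 as the test, with its size factors, with upper-quartile scaling, without the low-count filter, with a replicate block, with a sex covariate and with single libraries under a random mouse effect (limma). No scaling moved the median over all genes by 0.1 or more on the log2 scale. Leaving out 1 mouse gave 1 to 3 members called higher and 1 to 2 called lower, and 1 to 2 partner genes called higher and 2 to 4 called lower. Partner genes called higher numbered 1 under the size factors of DESeq2, under upper-quartile scaling, without the filter, with the replicate block and with the sex covariate, since Itpr3 was lost. Within males 1 member was called lower, and within females 0 were called higher, both fits chosen after seeing the data, with fewer mice. The count of members with an interaction was 1 with DESeq2 and 2 without the low-count filter. Kcnn1 changed sign to 0.20 under the random mouse effect, to 0.0903 under the replicate block, to 0.0656 with the sex covariate and to 0.75 within males, and leaving out 1 mouse gave -0.39 to 0.38. Kcnn4 changed sign to -0.45 within females, and leaving out 1 mouse gave -0.0916 to 0.62, below 0 in 4 fits. Kcnt1 changed sign to 0.37 within males. For these the cause was not tested.

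Whether equal replicate numbers pair the mice depends on the genes used. The departures of same-numbered mice from their group means had an r across genes of 0.108 to 0.199 over 8445 genes of at least 10 CPM, but of 0.0751 to 0.142 over 10185 genes of at least 5 CPM, with 3 of 4 pairs over 0.1, and 4 of 8 mice correlated best with their own number. Over the genes of at least 10 CPM, mice of the same sex with different numbers had r of 0.0627 to 0.198. Mice of different sexes had r of -0.251 to -0.0826. Same-numbered mice were thus not set apart from other mice of the same sex. The wider gene set was examined first, and no pairing is taken as given. The replicate block changed no call among the channel genes. For Kcnmb4, Kcnn3 and Kcnn4 the low counts limit precision.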
